A study of Homo sapiens with 8 samples.

Results

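The genes described are 9 sialyltransferases, ST6GAL1, ST3GAL1, ST3GAL2, ST3GAL3, ST3GAL4, ST3GAL5, ST3GAL6, ST6GALNAC2 and ST6GALNAC4, and the galactosyltransferase A4GALT, 10 of the 19056 genes measured. They were selected on measured values, namely the log2 ratios of each dose to the control of its own series, among which ST6GAL1 was listed as much lower. Their ratios are therefore given as a description, with no test. The samples were A549 cells, an epithelial lung cancer line, which the labels record as exposed for 48 h to EEDS, the ethanol extract of Descurainia sophia seeds, or to helveticoside, a cardiac glycoside present in those seeds, while the study's methods give a shorter exposure. EEDS was given at 1.25, 5 and 20 μg/mL and helveticoside at 3.75, 15 and 60 nM, each with a vehicle control of its own. Each of the 8 one-colour Agilent arrays carried RNA pooled from 3 cultures of 1 cell line, so each dose had 1 array and no spread between replicates. Agent and series cannot be told apart, since each agent was run only with its own control.

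Sialyltransferases lie in the Golgi membrane and move sialic acid from CMP-sialic acid to the end of a growing sugar chain on a glycoprotein or glycolipid. The ST3GAL and ST6GAL enzymes cap galactose and the ST6GALNAC enzymes add to N-acetylgalactosamine, so the set of enzymes in a cell decides which sialylated ends its surface can carry. A4GALT adds galactose instead, and makes globotriaosylceramide, the receptor of Shiga toxin, from lactosylceramide, the same acceptor that ST3GAL5 turns into the ganglioside GM3. Airway and lung epithelial cells are rich in sialylated surface glycans, which influenza viruses use as receptors.

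Promoter windows are shown for 3 genes whose signal was lower at each successive EEDS dose, ST6GAL1, ST6GALNAC4 and A4GALT, and for ST3GAL5, which was higher than its control at all 6 doses. Each is the 250 bases before the start farthest upstream in RefSeq (GRCh38.p14), printed 5′ to 3′ on the gene's strand, with motif matches in capitals. The windows lie at chr3:186930276-186930525 on the plus strand, and at chr9:127917042-127917291, chr22:42721302-42721551 and chr2:85889035-85889284 on the minus strand. The table listed 1 start for ST6GAL1 and ST6GALNAC4, 2 for A4GALT and 5 for ST3GAL5, and the arrays do not show which start was in use.
ST6GAL1: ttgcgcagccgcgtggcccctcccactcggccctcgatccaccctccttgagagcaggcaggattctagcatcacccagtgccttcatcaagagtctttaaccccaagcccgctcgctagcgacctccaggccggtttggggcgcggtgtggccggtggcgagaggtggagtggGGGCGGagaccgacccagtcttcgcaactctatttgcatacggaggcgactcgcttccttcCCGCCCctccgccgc
ST6GALNAC4: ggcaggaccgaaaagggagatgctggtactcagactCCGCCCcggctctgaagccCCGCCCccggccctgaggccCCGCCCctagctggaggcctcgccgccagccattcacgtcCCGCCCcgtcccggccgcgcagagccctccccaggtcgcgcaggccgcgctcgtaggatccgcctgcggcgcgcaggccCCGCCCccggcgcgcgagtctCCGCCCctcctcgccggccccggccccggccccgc
A4GALT: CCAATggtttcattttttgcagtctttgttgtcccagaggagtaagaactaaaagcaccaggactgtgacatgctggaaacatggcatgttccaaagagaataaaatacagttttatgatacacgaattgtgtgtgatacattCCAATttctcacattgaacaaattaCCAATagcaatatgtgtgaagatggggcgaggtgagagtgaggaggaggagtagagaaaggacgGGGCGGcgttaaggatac
ST3GAL5: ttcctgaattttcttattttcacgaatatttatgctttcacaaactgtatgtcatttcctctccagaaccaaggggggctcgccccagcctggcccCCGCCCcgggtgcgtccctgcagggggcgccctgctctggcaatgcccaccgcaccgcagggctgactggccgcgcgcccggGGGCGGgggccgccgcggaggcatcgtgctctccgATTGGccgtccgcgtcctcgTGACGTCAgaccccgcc

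The motifs searched, on both strands, were the GC box GGGCGG, the CCAAT box CCAAT, the TATA box TATAAA, the AP-1 site TGANTCA, the cyclic AMP response element TGACGTCA, the E-box CACGTG and the EGR site GCGNGGGCG, which can overlap a GC box. ST6GAL1 held 2 GC boxes, beginning 76 and 15 bases before the start, in a window of 65.6% G and C. ST6GALNAC4 held 6 GC boxes between 214 and 35 bases before the start in a window of 79.2% G and C. A4GALT held 3 CCAAT boxes and 1 GC box in a window of 42% G and C. ST3GAL5 held 2 GC boxes, 1 CCAAT box and 1 cyclic AMP response element 17 bases before the start. The lower genes shown and ST3GAL5 thus all held GC boxes, and no window shown held a TATA box, an AP-1 site, an E-box or an EGR site. Of the matched windows not shown, that of ST3GAL3 held GC and CCAAT boxes. That of ST3GAL4 held GC boxes and 1 E-box, and that of ST3GAL6 held none of the motifs. Over all 35116 RefSeq windows of this length, 42.6% held a GC box, 32% a CCAAT box, 10.7% a TATA box, 6.57% an AP-1 site, 1.65% a cyclic AMP response element, 6.34% an E-box and 8.41% an EGR site. The table matched 7 of the 10 symbols. A match is a run of letters in the reference and was not measured in these cells.

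The 5 epithelial markers KRT8, KRT18, KRT19, CDH1 and EPCAM and the 6 enzymes for which A549 cells are known, such as AKR1B10 and NQO1, were all well above background on both controls. Here well above background is the scanner software's own call for a spot. Of the markers of other cells, 0 of 3 fibroblast, 1 of 3 endothelial (CDH5) and 2 of 4 leukocyte genes (PTPRC and CD14) passed that call on both controls. Between 54.5% and 64.9% of probes passed it on an array, fewer on the helveticoside arrays than on the EEDS arrays, and no spot was saturated. For a single dose there is no replicate, and the 2 controls serve as the measure of error. They differed from each other with an SD of 0.50 on the log2 scale over 12390 genes well above background on both. In 95% of those genes the difference was at most 1.02, and this spread also holds any difference between the series. For the 8 members well above background on both controls the difference ran from -0.59 (ST3GAL4) to 0.47 (ST3GAL2). The scanner software's error for a member's spot well above background had a median of 10.1% of the signal. Precision is limited by the small number of arrays.

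ST6GAL1, which places sialic acid on the galactose ends of N-glycans and acts on integrins and other receptors, had the largest ratios below 0 of the 10 genes at the middle and top doses of both agents. Its normalized signal was 1013 in the EEDS control, 286 at 1.25 μg/mL, 216 at 5 μg/mL and 22.2 at 20 μg/mL. It was 779.8 in the helveticoside control, 543 at 3.75 nM, 170.4 at 15 nM and 39.5 at 60 nM. Both series thus stepped down at every dose, and both top doses ended where the spot was no longer well above background. The log2 ratios to the control were -1.82, -2.23 and then -5.51 with EEDS, and -0.52, -2.19 and then -4.30 with helveticoside. Because the top values are at background, they give bounds within the main processing, measured against the lowest signal that still passed on that array. The signal was at least 36.2-fold lower at 20 μg/mL and at least 17.5-fold lower at 60 nM. The lowest EEDS dose already gave 3.54-fold less signal, whereas the ratio at the lowest helveticoside dose was about the size of the SD between the controls. The size at the top doses varied with the processing: over 8 alternatives the log2 ratio ran from -6.12 to -3.42 with EEDS and from -4.68 to -2.64 with helveticoside, below 0 in each. The smallest of these falls, -3.42 and -2.64, were short of the bounds, which are 5.18 and 4.13 on the log2 scale.

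**Figure D1:**
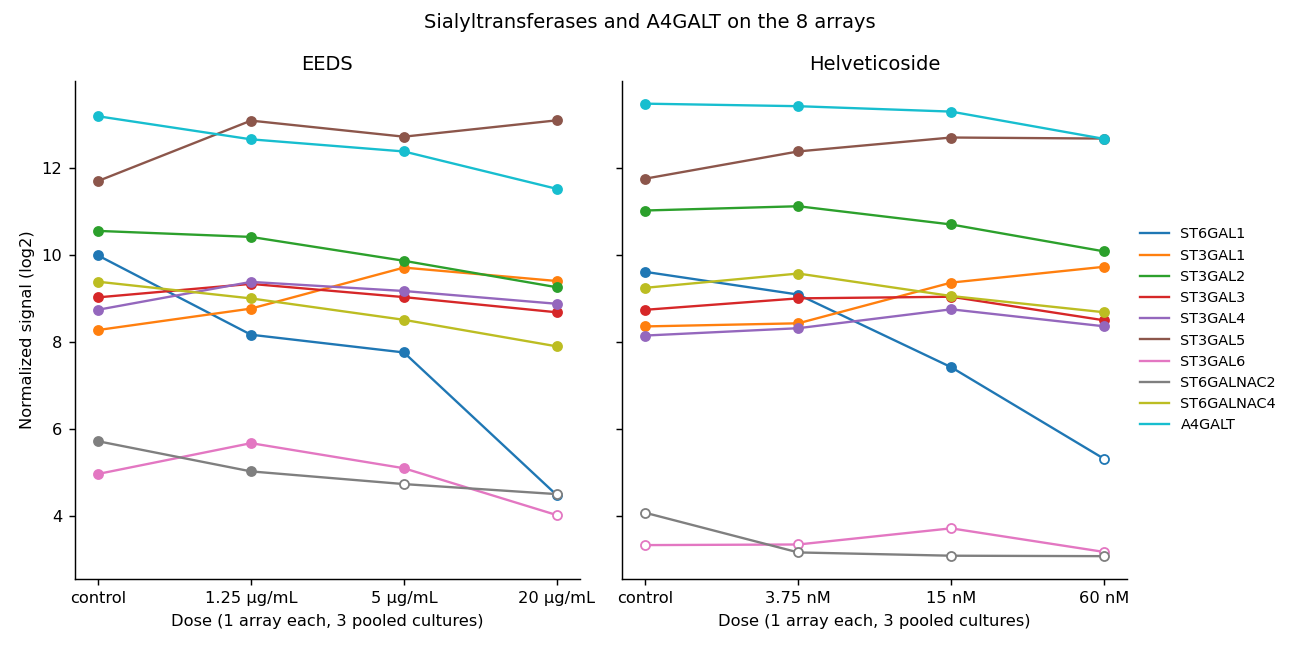
Normalized signal (log2, vertical axis) of the 10 genes on each array, by dose of EEDS (left) and helveticoside (right), with 1 array per point and open points where the gene was not well above background. ST6GAL1 goes from 9.98 to 4.47 with EEDS and from 9.61 to 5.30 with helveticoside, while ST3GAL1 and ST3GAL5 end above their controls. Heights of different genes come from different probes and are not comparable.

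ST3GAL1 stood above its control at the upper doses of both agents. It caps the core 1 O-glycan of mucin-type glycoproteins, the T antigen. Its log2 signal was 8.27 in the EEDS control, 8.76 at 1.25 μg/mL, 9.71 at 5 μg/mL and 9.40 at 20 μg/mL. It was 8.35 in the helveticoside control, 8.42 at 3.75 nM, 9.36 at 15 nM and 9.72 at 60 nM. The 2 controls were within 0.08 of each other, and the single array of each upper dose lay above both controls. The ratios were 1.44 and 1.13 at the upper EEDS doses, so the highest signal was at the middle dose, and 1.01 and 1.37 at the upper helveticoside doses. The top EEDS ratio was 0.87 when the median signal was used as scanned, just short of 2-fold.

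ST3GAL5, the GM3 synthase that opens the ganglioside series, was above its control on all 6 treated arrays. Its log2 signal was 11.70 in the EEDS control and 13.09, 12.72 and 13.09 at the rising doses. It was 11.75 in the helveticoside control and 12.38, 12.70 and 12.67 at the rising doses. Each treated array lay above both controls. With EEDS the signal was 2.62-fold, 2.03-fold and 2.63-fold that of the control, so the lowest dose already gave about the ratio of the top dose. With helveticoside the log2 ratios were 0.63, 0.95 and 0.92, all short of 2-fold and within the range that held 95% of genes between the controls.

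A4GALT, which shares the acceptor lactosylceramide with ST3GAL5, was below its control on all 6 treated arrays. Its log2 signal was 13.19, 12.66, 12.38 and 11.52 from the EEDS control to 20 μg/mL. It was 13.48, 13.42, 13.29 and 12.67 from the helveticoside control to 60 nM. The signal was thus lower at each step in both series, but the first pair of helveticoside doses stood 0.06 and 0.18 below their control, less than the 0.29 between the controls. The ratio at the top dose was -1.67 with EEDS, 3.18-fold less signal, and -0.81 with helveticoside. ST3GAL5 and A4GALT therefore stood on opposite sides of their controls at every dose of both agents.

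ST3GAL2, which adds the terminal sialic acid of several gangliosides and also works on O-glycans, was lower at the upper doses. Its log2 signal was 10.55, 10.41, 9.86 and 9.25 from the EEDS control to the top dose. It was 11.02, 11.12, 10.70 and 10.08 from the helveticoside control to the top dose. The ratio at the top dose was -1.30 with EEDS and -0.94 with helveticoside, against a difference of 0.47 between the controls. With EEDS each dose lay below the one before it, whereas the lowest helveticoside dose lay 0.10 above its control.

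ST6GALNAC4, which adds a further sialic acid to an already sialylated core 1 O-glycan, had a normalized signal of 666, 511, 363 and 238 from the EEDS control to the top dose. In the helveticoside series it was 605, 759, 530.5 and 409.6. EEDS thus gave a step down at each dose to a ratio of -1.49, or 2.80-fold less signal. The helveticoside ratios of 0.33, -0.19 and -0.56 crossed 0, and only the last was larger than the SD between the controls. All lay within the range that held 95% of genes between the controls.

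ST3GAL3 and ST3GAL4, which cap the galactose of lactosamine chains and take part in making sialyl Lewis structures, stayed near their controls. ST3GAL3 had log2 ratios between -0.34 and 0.31 over the 6 treated arrays, against -0.29 between the controls. ST3GAL4 had ratios between 0.14 and 0.64, all above 0, against -0.59 between the controls. With 1 array per dose, changes of that size could not be told from the difference between the controls. With 75th percentile scaling the ST3GAL4 ratio at 20 μg/mL was -0.0027 in place of 0.14. Only ST3GAL3 had more than 1 probe, and its other 2 probes gave -0.01 and 0.05 at 20 μg/mL.

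ST3GAL6, which also caps lactosamine chains, and ST6GALNAC2, which acts on core 1 O-glycans, were dim. ST3GAL6 was well above background on the EEDS control, at a log2 signal of 4.96, and at 1.25 and 5 μg/mL, at 5.67 and 5.09. Its probe has 10 spots on each array, whose log2 SD was between 0.13 and 0.32 on those arrays over the spots kept. The difference of 0.71 at 1.25 μg/mL was larger than that spread between spots, which is technical. At 20 μg/mL it was not well above background, at least 1.11-fold lower than the control. ST6GALNAC2 was well above background only in the EEDS control, at 5.71, and at 1.25 μg/mL, at 5.02, and at 20 μg/mL it was at least 1.87-fold lower. Neither gene was well above background on any helveticoside array, and no ratio is given for them there.

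**Figure D2:**
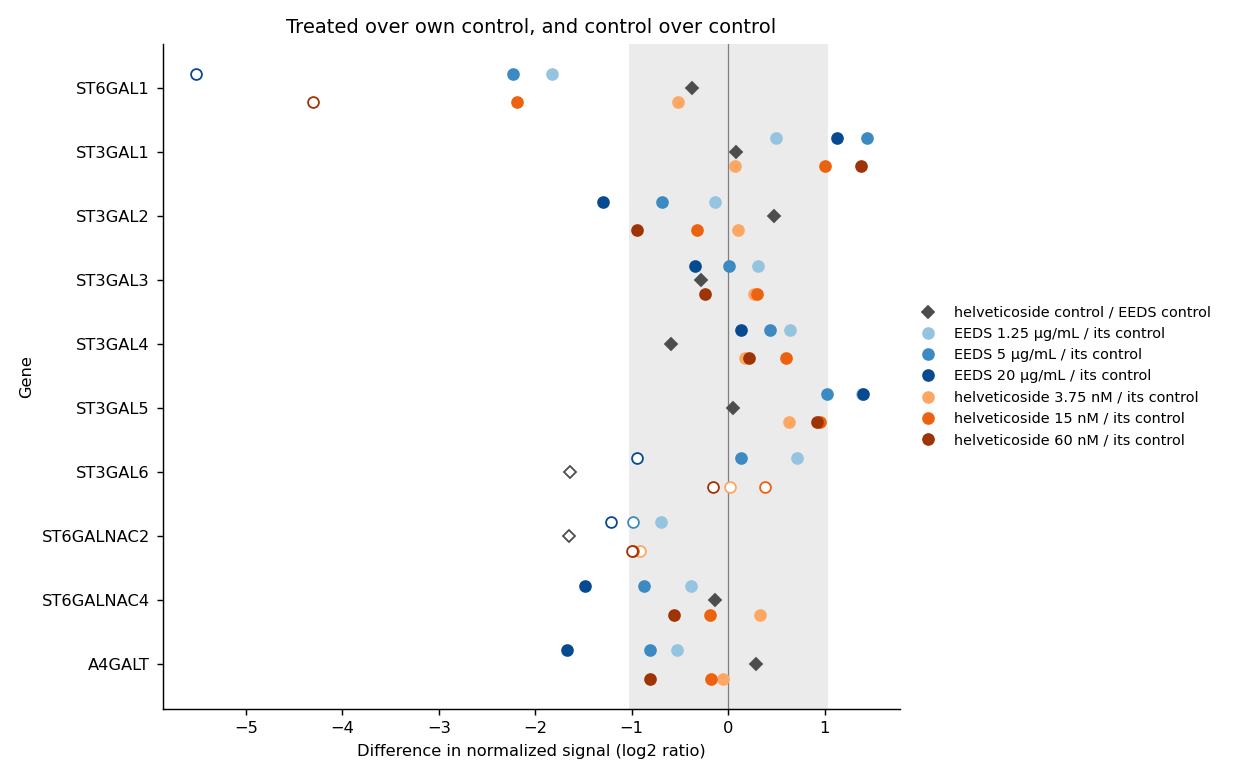
Log2 ratio of normalized signal at each dose to the control of its own series (circles) and of the helveticoside control to the EEDS control (diamonds) for the 10 genes. The shaded band is -1.02 to 1.02, which held 95% of genes between the controls, and open symbols mark ratios with an array not well above background. At the top EEDS dose ST6GAL1, ST3GAL2, ST6GALNAC4, A4GALT and, at background, ST6GALNAC2 lie to the left of the band, and ST3GAL1 and ST3GAL5 to its right.

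Counted at 2-fold, the genes split most at the top EEDS dose. At 1.25 μg/mL ST6GAL1 was lower and ST3GAL5 higher, where 3.66% of all genes were lower and 4.22% higher. At 5 μg/mL ST6GAL1 was lower and ST3GAL1 and ST3GAL5 higher, where 8.47% of all genes were lower and 7.35% higher. At 20 μg/mL 5 of the 10 were lower, ST6GAL1, ST3GAL2, ST6GALNAC2, ST6GALNAC4 and A4GALT, and ST3GAL1 and ST3GAL5 were higher, where 14.5% of all genes were lower and 13.3% higher. ST6GALNAC2 is counted on a value at background and its bound is 1.87-fold.

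Fewer passed 2-fold with helveticoside. At 3.75 nM none of the 10 did, where 4.31% of all genes were lower and 3.37% higher. At 15 nM ST6GAL1 was lower and ST3GAL1 higher, where 8.07% of all genes were lower and 7.08% higher. At 60 nM the count was again ST6GAL1 lower and ST3GAL1 higher, where 12.8% of all genes were lower and 10.8% higher. Among ratios of members well above background, the nearest on either side of the threshold were ST3GAL1 at 15 nM, at 1.01, and ST3GAL5 at 15 nM, at 0.95. Of the 8 members well above background on both controls, few passed 1.02, the limit that held 95% of genes between the controls. They were ST6GAL1 at 15 nM, and ST6GAL1 and ST3GAL1 at 60 nM.

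Among the 8 members well above background on both controls, a filter chosen after the data were seen, 4 were lower and 2 higher at 20 μg/mL, against 18.2% and 13.9% of such genes. At 60 nM 1 was lower and 1 higher, against 15.9% and 10.5%. The median ratio of these 8 was -0.82 at 20 μg/mL and -0.40 at 60 nM, and that of such genes was -0.04 and -0.01. For the 10 it was -1.08 and -0.40, and for all genes 0.02 and -0.01. The -1.08 lies between the ratios of ST3GAL6 and ST6GALNAC2, both at background at 20 μg/mL. Since these ratios chose the genes, the shares are given for scale only. All 8 members above background had the same sign at both top doses, as did 86.9% of all genes well above background on both controls. In 6 of the 8 the EEDS ratio was the larger in size, as in 61.7% of the same-sign genes well above background on both controls, though the doses of an extract and of a pure compound are not matched.

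The order of doses differed between the genes. With EEDS ST6GAL1, ST3GAL2, ST6GALNAC4 and A4GALT were lower at every successive step, as were 13.4% of all genes, and none of the 10 was higher at every step. With helveticoside ST6GAL1 and A4GALT were lower at every step, as were 11.7% of all genes. ST6GALNAC2 is left out of this order, since its values at background have none. ST3GAL1 was higher at every helveticoside step, as were 12.3% of all genes.

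The genes whose pattern was most like that of ST6GAL1 were sought among 12382 other genes well above background on both controls, by the root mean square difference of the 6 log2 ratios. RIMBP3, at 0.59, LINC00205, at 0.60, and SNAI3-AS1, at 0.60, were closest. RIMBP3 had ratios of -5.09 at 20 μg/mL and -4.29 at 60 nM and stayed well above background on all 8 arrays. It differed most at 3.75 nM, where it stood at -1.76 and ST6GAL1 at -0.52. LINC00205 was not well above background at 20 μg/mL, 15 nM and 60 nM, and SNAI3-AS1 at 60 nM. The distances are nearly equal and use the ST6GAL1 values at both top doses, which are at background, so they give no order among the 3 genes.

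The other genes of the pathway were taken from 7 lists, of which 63 of 70 symbols were matched. The lists were written with earlier results of these data known, so the shares below are given for scale. Their dose trend was tested with limma as the log2 change per dose step, with Benjamini-Hochberg adjustment over all genes. With 1 array per dose, the SE and p of this fit rest on how far single arrays lay from a straight line. They do not measure the spread between cultures. With EEDS 6 genes fell and 7 rose, 9.52% and 11.1%, against 7.86% falling and 7.28% rising of all genes. With helveticoside 4 fell and 5 rose, 6.35% and 7.94%, against 5.81% and 5.5% of all genes. The calls rest on the full dose series of both agents together: without the lowest dose, without the middle dose, or from the 4 arrays of 1 agent, limma called 0 genes of the 63, and between 8 and 13 in each direction had an unadjusted p under 0.05. The difference between the agents' slopes was called by limma for 0 of 19046 genes, and 524 had an unadjusted p under 0.05.

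Of the 11 other sialyltransferases limma called 0 with EEDS, where 2 had an unadjusted p under 0.05, and 1 fell with helveticoside. That was ST8SIA4, a polysialyltransferase, which was at least 10.2-fold lower at 60 nM, with a limma adjusted p of 0.0416. At 20 μg/mL ST8SIA4 was also at background. Its bound there was 17.8-fold, set by its own signal, which lay above the lowest signal that passed on that array. Its EEDS trend had a limma adjusted p of 0.0515. Its probes disagreed in size, and the mean of both gave a ratio of -2.07 at 20 μg/mL against -4.15 for the brighter one. Its log2 ratio at 60 nM was -2.02 in the values deposited by the authors, smaller than the bound at that dose. ST6GAL2, the other enzyme with the activity of ST6GAL1, had ratios of -1.34 and -1.07 at the top doses and was called for neither agent. Of the 7 genes that make, activate, transport or break down sialic acid limma called 0 with either agent, with 2 having an unadjusted p under 0.05 with EEDS and 1 with helveticoside. Of the 4 sialidase genes and CTSA, which protects the lysosomal sialidase, NEU1, that lysosomal enzyme, rose with both agents, by 0.53 ± 0.05 (SE) per step with EEDS, adjusted p = 0.0132 in limma, and by 0.51 ± 0.05 (SE) with helveticoside, adjusted p = 0.0165.

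Around ST3GAL5 and A4GALT, in the glycosphingolipid list, 2 of 9 genes fell and 2 rose with both agents. UGCG, which makes glucosylceramide at the start of the pathway, rose 15.2-fold at 20 μg/mL and 9.23-fold at 60 nM. B3GNT5, which draws lactosylceramide into the lacto series, rose 8.73-fold and 6.12-fold. B4GALNT1, which carries GM3 on to GM2, fell 19.1-fold and 17.3-fold, and B3GALT4, which makes GM1, was at least 16.1-fold and at least 6.51-fold lower. At the top doses B3GALT4 was at background, and its log2 ratio was -2.22 with EEDS where no background was subtracted and -2.17 with helveticoside in the values deposited by the authors, smaller than these bounds. The limma adjusted p of these 4 genes lay between 0.0131 (B3GNT5) and 0.0414 (B3GALT4) with EEDS. B4GALT5 and B4GALT6, which make lactosylceramide, were not called.

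**Figure D3:**
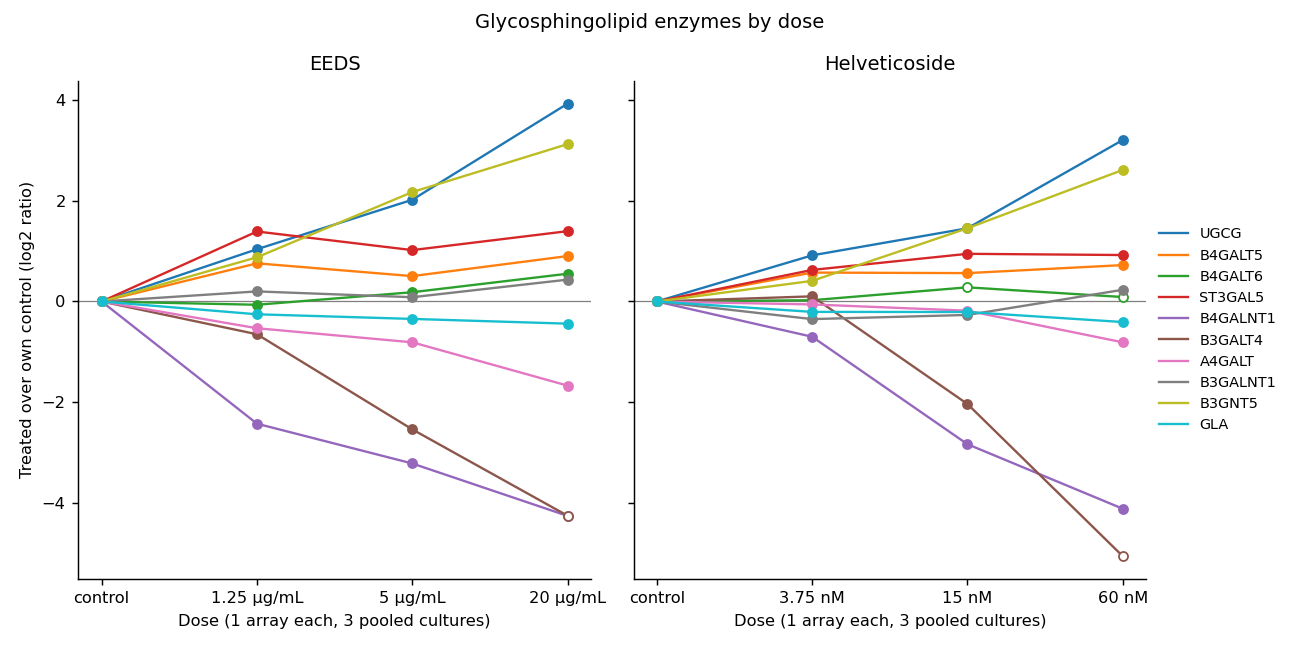
Log2 ratio to the control of the same series (vertical axis) of 10 glycosphingolipid enzymes, ST3GAL5 and A4GALT among them, by dose of EEDS (left) and helveticoside (right), 1 array per point. Open points were not well above background. UGCG, B3GNT5 and ST3GAL5 lie above 0 and B4GALNT1 and A4GALT below 0 at every dose, and UGCG reaches 3.93 with EEDS and 3.21 with helveticoside.

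Among the galactosyltransferases that build the acceptors, C1GALT1, which makes the core 1 O-glycan that ST3GAL1 caps, and B4GALT3 rose with both agents. B3GALT6, of the proteoglycan linker, fell with both, and B4GALT7 fell with EEDS, with limma adjusted p values of 0.0295 and 0.0645 for the 2 agents. Of the branching enzymes, MGAT3, which adds the bisecting residue of N-glycans, and GCNT3 fell and B3GNT2 rose with EEDS, and limma called 0 of 13 with helveticoside, where 5 had an unadjusted p under 0.05 and MGAT3 an adjusted p of 0.0515. MGAT3 was not well above background at 5 and 20 μg/mL or at 15 and 60 nM. Its log2 ratio at 20 μg/mL was -3.65, and -1.47 with the median signal as scanned. FUT3 was the 1 of 8 fucosyltransferases called, with EEDS, and was well above background only at 20 μg/mL.

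**Figure D4:**
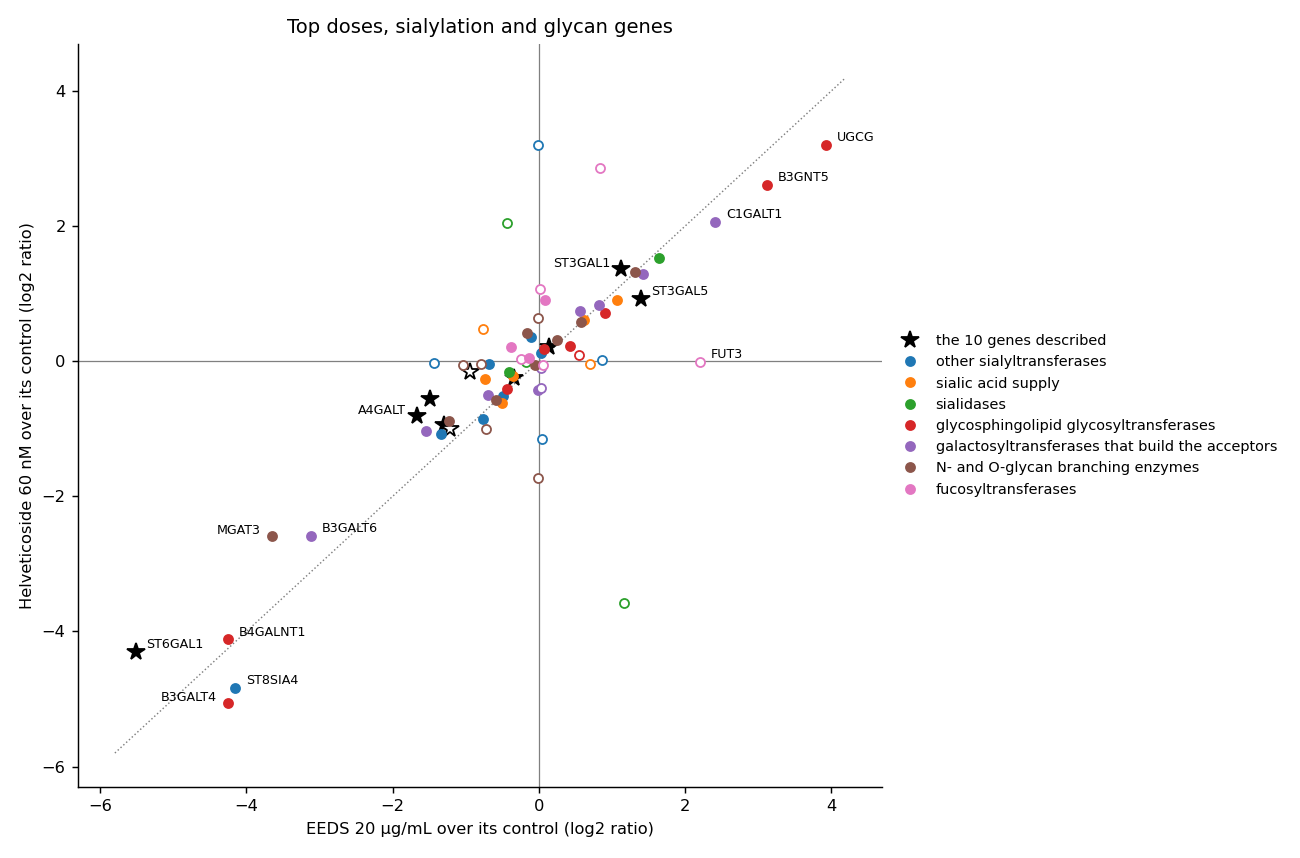
Log2 ratio to the own control at 20 μg/mL EEDS (horizontal) and 60 nM helveticoside (vertical) for the 10 genes (stars) and 63 other glycan genes coloured by list, with the line of equal values dotted. Open symbols were not well above background on both controls. ST6GAL1 is at -5.51 and -4.30, and the labelled genes other than FUT3 have the same sign on both axes.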

How the data were processed

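Transcript levels of A549 cells were read from 8 Agilent arrays of 1 colour. Per the labels, RNA from 3 cultures was pooled for each array. The authors scanned the arrays with Agilent Feature Extraction and deposited spot intensities, whose processed signal has the background subtracted by that software. They also deposited a table of processed intensities, which was put on the log2 scale here. Their methods state a limit of 1.4 times the local background and quantile normalization. From the deposited intensities, 22 of 34127 probes were left out as outliers on at least 1 array, the processed signal was quantile-normalized over all 8 arrays and put on the log2 scale, and 24812 probes were matched to 19056 genes by accession in RefSeq. A gene with several probes took the brightest by mean signal. The limit of 1.4 left 19046 genes in the EEDS series and 19056 in the helveticoside series. Dose trends were fitted in 1 model over both series with limma 3.58.1 (trend and robust eBayes) in R 4.3.3, on 4 residual degrees of freedom, and figures with matplotlib 3.10.9. On simulated data for the EEDS trend over 19046 genes, 200 of them changed, the fit called 91 changed and 5 unchanged genes, and found 61% of slopes of 1 and 30% of slopes of 0.5. The simulated slopes were exactly linear, and fewer genes changed than were called in the data. These shares therefore do not give the power or error of the trends in the data. Bounds compare the brighter array with the lowest signal well above background on the dimmer one, or with the gene's own signal there where that was higher. They hold for the main processing only.

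The members and the gene lists were chosen with earlier results of these data known. Pathway genes were named where a trend was called, or where both top doses differed over 2-fold in the same direction with the gene well above background on both controls. FUT1 met neither condition. It is given for its middle doses, after the data were seen, and is not counted among the named pathway genes. The 3 genes most like ST6GAL1 were named by their ratios. Alternatives were other background corrections and normalizations, other probes of a gene, the values deposited by the authors, other filters and fold thresholds, the other control, and fewer doses. Protein and probe sequences were not used here.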

Additional observations from a re-analysis of the deposited data

How the results depend on the processing

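Of 174 alternative values of the members' ratios at the top doses, 151 moved by less than 0.50, the SD between the controls, 22 moved more, and 1 ratio past 2-fold reversed: ST6GALNAC2 at 20 μg/mL was 0.43 against the control of the other series, where it was dim. Against that control ST3GAL6 at 20 μg/mL (from -0.95 to 0.69) and ST3GAL4 at 60 nM (from 0.21 to -0.38), neither past 2-fold, also changed sign, as did ST3GAL4 at 20 μg/mL with 75th percentile scaling. Of 262 values of the named pathway genes 222 moved by less than 0.50 and none of those called at 2-fold reversed. The 5 members lower at 20 μg/mL became 3 among genes well above background on all 8 arrays, which leaves ST6GAL1 and ST6GALNAC2 out, and 2 at 3-fold. The 2 higher became 1 with the median signal as scanned, with normexp at an offset of 50 and with the values deposited by the authors, and 0 at 3-fold. For helveticoside the 1 lower became 0 among genes well above background on all 8 arrays, 3 against the control of the other series and 4 at 1.5-fold. The 1 higher became 2 with 75th percentile scaling and at 1.5-fold, and 0 at 3-fold. The filter chosen after the data were seen kept 4 of the 5. The counts of pathway genes with a trend (6 falling and 7 rising with EEDS, 4 falling and 5 rising with helveticoside) all became 0 without the lowest dose, without the middle dose, and from the agent's own 4 arrays, and the 4 falling with helveticoside became 2 with quantile normalization within each series. The lowest limma adjusted p of any gene in those reduced fits was 0.0729. Across all genes, 75th percentile scaling called 2186 falling and 1808 rising trends with EEDS, against 1497 and 1387. It moved the median ratio of all genes to -0.36 at 20 μg/mL and -0.18 at 60 nM. No paired analysis was possible because each group had 1 array. No array could be left out as a replicate. Signal over background limits ST6GAL1 at the top doses, ST3GAL6 and ST6GALNAC2.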
